A study of Mus musculus with 8 samples.

Results

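Mitochondria constantly join and divide, and the 10 genes described here encode the core of that machinery: Mfn1, Mfn2 and Opa1 for fusion, Dnm1l, Fis1, Mff, Mief1 and Mief2 for fission, and Oma1 and Yme1l1 for the proteases that cut OPA1. They were found by gene symbol in the platform annotation of the deposited array table, and each of the 10 had exactly 1 probe set with a single symbol, out of 22180 genes in all. Every one of the 10 passed the filter on low signal, which kept 15086 genes.

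The arrays measured total RNA of frozen hearts of male C57Bl6N mice harvested 1 week after transverse aortic constriction (TAC), an operation that narrows the aorta and puts the left ventricle under pressure load. The 4 hearts labelled C4KO_TAC came from mice with a CITED4 knockout and the 4 hearts labelled F/FCtr_TAC from floxed controls, whose Cited4 alleles carry recombination sites. The CITED4 protein has no DNA-binding domain of its own and acts through the co-activators CBP and p300. All 8 hearts had TAC, so no unoperated heart was compared, and the sources used here do not give the mice's age, the Cre driver, whether controls carried Cre or which part of the heart was taken. The labels do not tie the numbered hearts to litters or array runs, so p-values measure only the spread between these samples, and the number of arrays limits the precision.

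As background, mitofusins MFN1 and MFN2 are GTPases of the outer membrane that tether and fuse neighbouring mitochondria, and OPA1 is the GTPase that fuses the inner membranes and shapes the cristae. DRP1, the product of Dnm1l, is a cytosolic GTPase that is recruited to the outer membrane by MFF and by MID49 and MID51 (from Mief2 and Mief1), with FIS1 as a further outer membrane receptor, and constricts the organelle. OMA1 is a stress-activated protease and YME1L1 a constitutive one, and both convert long OPA1 into short forms. Cardiomyocytes are packed with mitochondria and depend on both mitofusins and OPA1 for normal respiration. The activity of these proteins is set largely by cleavage, phosphorylation and recruitment, which RNA signals do not show.

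The RefSeq promoter table (GRCm38.p6) held windows for all 10 genes, each of 300 bases from 250 before to 50 after an annotated start. The windows of the 3 fusion genes are printed because their signals were lower together in the knockout hearts, and that of Mief1 is printed as a fission gene without such a difference. Letters in capitals mark a match to 1 of 5 motifs searched on both strands. The window of Mfn1 lies at chr3:32529232-32529531 on the plus strand, that of Opa1 at chr16:29579084-29579383 on the plus strand, that of Mfn2 (the first of 3 windows) at chr4:147904860-147905159 on the minus strand, and that of Mief1 at chr15:80233830-80234129 on the plus strand.
Mfn1: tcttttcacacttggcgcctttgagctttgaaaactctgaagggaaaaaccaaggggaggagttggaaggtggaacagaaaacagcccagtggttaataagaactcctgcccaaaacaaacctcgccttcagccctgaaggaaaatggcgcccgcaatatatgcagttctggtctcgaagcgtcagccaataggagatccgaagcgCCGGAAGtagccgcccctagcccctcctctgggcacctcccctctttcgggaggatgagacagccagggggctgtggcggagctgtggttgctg
Mfn2: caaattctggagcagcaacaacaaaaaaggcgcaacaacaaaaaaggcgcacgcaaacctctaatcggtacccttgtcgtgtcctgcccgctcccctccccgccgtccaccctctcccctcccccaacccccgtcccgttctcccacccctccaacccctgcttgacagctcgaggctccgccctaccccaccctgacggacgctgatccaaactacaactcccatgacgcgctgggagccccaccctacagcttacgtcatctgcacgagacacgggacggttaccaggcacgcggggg
Opa1: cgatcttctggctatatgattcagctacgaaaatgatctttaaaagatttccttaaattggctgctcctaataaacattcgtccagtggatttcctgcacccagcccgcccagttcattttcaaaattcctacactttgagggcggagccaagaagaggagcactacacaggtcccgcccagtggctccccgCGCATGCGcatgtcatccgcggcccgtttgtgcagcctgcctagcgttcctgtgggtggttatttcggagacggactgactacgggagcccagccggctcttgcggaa
Mief1: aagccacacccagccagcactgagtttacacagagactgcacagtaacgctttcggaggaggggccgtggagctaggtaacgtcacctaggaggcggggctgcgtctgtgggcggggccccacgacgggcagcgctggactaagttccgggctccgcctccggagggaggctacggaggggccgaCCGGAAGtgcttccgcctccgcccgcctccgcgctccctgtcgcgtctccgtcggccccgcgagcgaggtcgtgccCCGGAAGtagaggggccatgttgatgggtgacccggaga

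The motifs were CCGGAAG for ETS factors such as GABP, CGCATGCG for the core of NRF1, TNAAGGTCA for the estrogen-related receptors, AAGATGGC for YY1 and CACGTG for the E-box, names that recur among regulators of nuclear genes for mitochondrial proteins. The ETS letters stood in at least 1 window of 5 of the 10 genes, against 9.93% of all 27025 genes in the table and 16.8% of those that were tested on the arrays. These 5 were 1 fusion gene (Mfn1, bases 207 to 213 of the window), 3 fission genes (Dnm1l, Fis1 and Mief1) and Yme1l1. Mief1 held the letters at bases 186 to 192 and 262 to 268, and Yme1l1 held 3 matches. The NRF1 core was found in 1 gene, Opa1 (bases 193 to 200), against 2.07% of all genes and 3.73% of the tested ones, and the E-box in 1 gene, Mief2, against 8.09% and 11.1%. No window of the 10 held the estrogen-related receptor letters (1.43% of all genes, 0.88% of the tested ones) or the YY1 letters (3.19% and 4.49%). The windows of Mfn2, Mff and Oma1 held none of the 5, and no matches of different motifs overlapped. The fusion genes thus had no motif of this set in common, and the ETS letters occurred on both sides of the fusion and fission division. A match describes letters in a window and not a bound site.

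Cited4 itself, read as a check of the labels, was lower in every knockout heart (control 5.98 ± 0.20, knockout 5.07 ± 0.19, log2 intensity, mean ± SD, n = 4 per group). Array medians lay between 4.29 and 4.33, and correlations between arrays between 0.979 and 0.988. All 12 ventricular cardiomyocyte markers had signals above the filter value, with mean log2 signals from 8.01 to 12.8.

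The mean signals of the 3 fusion genes were lower in the knockout hearts, and those of the 5 fission genes differed by at most 0.09 (log2), a contrast that was not tested. The 95% intervals of the fission genes reached as far as -0.26 for Mff and 0.37 for Mief2. None of the 10 genes passed the test. In limma's fit over 15086 genes, adjusted by Benjamini-Hochberg, 0 of the 10 had an adjusted p under 0.05, as had 0 genes in all (0% of those tested). Of the 10, 4 had an unadjusted p under 0.05, all lower in the knockout (Mfn1, Mfn2, Opa1 and Oma1), and 0 were higher. Of all tested genes 5.61% were lower and 5.64% higher at that level, 1697 genes or 11.2% together. The 4 knockout values lay wholly below the 4 control values in 3 of the 10, Mfn1, Mfn2 and Opa1, and wholly above them in 0. Of all tested genes 2.9% lay wholly below and 2.33% wholly above, 5.23% together. In bulk tissue, fewer cells of a type and less RNA per cell cannot be told apart.

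Mfn1 had the largest difference of the 10. Its log2 signal was 9.82, 10.13, 10.05 and 10.03 in control replicates 1 to 4 and 9.56, 9.79, 9.72 and 9.67 in knockout replicates 1 to 4. Control replicate 1 was the lowest control and knockout replicate 2 the highest knockout heart, and a gap of 0.03 separated them, so the groups did not overlap but nearly touched. The difference, knockout minus control, was -0.32 ± 0.09 (log2, SE; 95% interval -0.52 to -0.12), which is 79.9% of the control signal. limma gave an unadjusted p of 0.00464 and an adjusted p of 0.421, and the exact permutation p (two-sided) was 0.0286, which is the floor for the 70 assignments of 4 against 4 hearts. Among all tested genes it ranked 132nd by p.

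**Figure D1:**
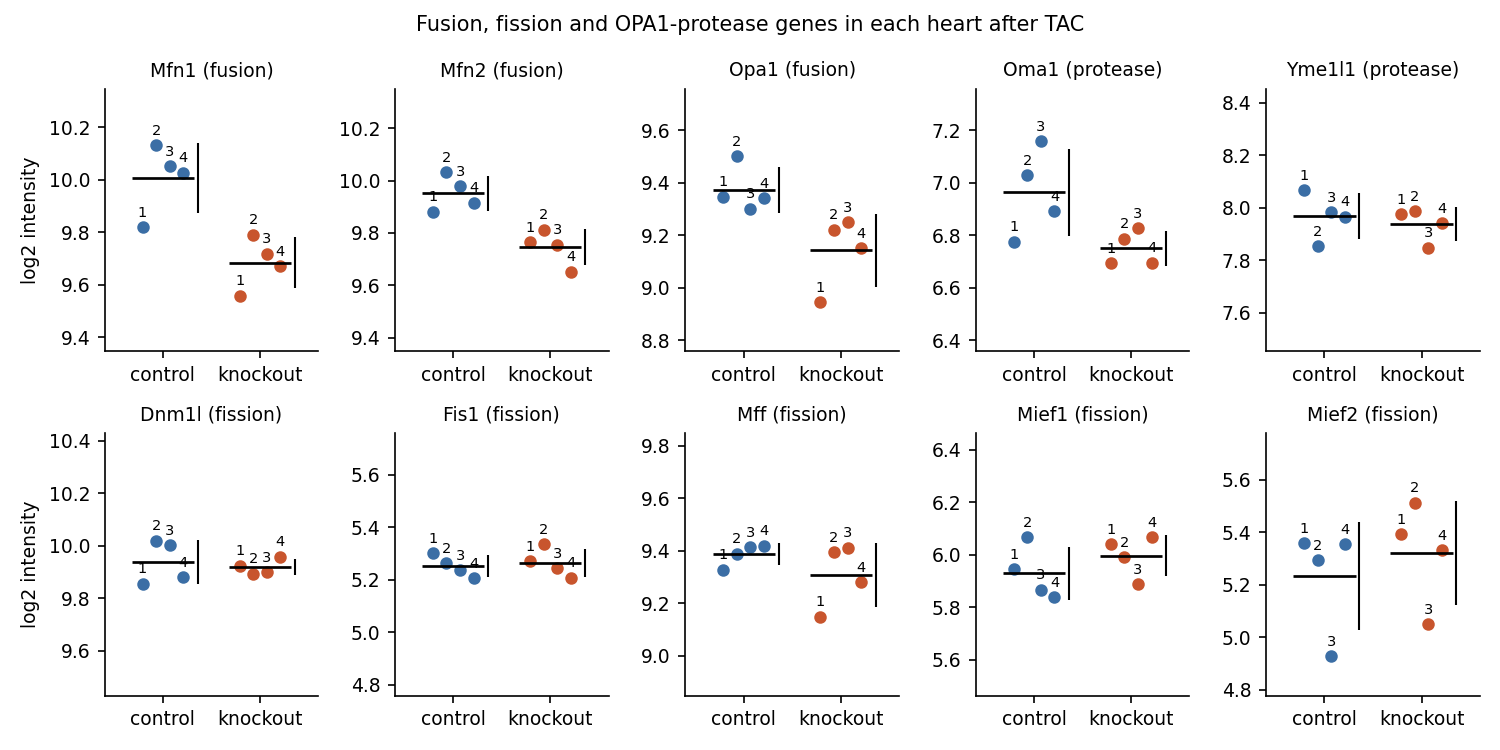
Log2 intensity (y axis) of each of the 10 genes in the 4 control and 4 knockout hearts, with points numbered by replicate, horizontal lines at group means and vertical lines of ± 1 SD; every panel spans the same log2 range. The knockout points lie below all control points for Mfn1, Mfn2 and Opa1, and the groups overlap in the other 7 panels.

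Mfn2, the mitofusin that also links mitochondria to the endoplasmic reticulum, had a smaller difference with narrow groups. Its log2 signal was 9.88, 10.03, 9.98 and 9.91 in control replicates 1 to 4 and 9.76, 9.81, 9.75 and 9.65 in knockout replicates 1 to 4. The groups were separated by 0.07, with knockout replicate 4 lowest. The difference was -0.21 ± 0.07 (SE; 95% interval -0.37 to -0.04), or 86.7% of the control signal, with an adjusted p of 0.421 in limma.

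Opa1, the inner membrane fusion GTPase, was also lower. Its log2 signal was 9.35, 9.50, 9.30 and 9.34 in control replicates 1 to 4 and 8.94, 9.22, 9.25 and 9.15 in knockout replicates 1 to 4. Knockout replicate 1 stood well below the other knockout hearts, and the groups were 0.05 apart. The difference was -0.23 ± 0.09 (SE; 95% interval -0.43 to -0.03), or 85.2% of the control signal, with an adjusted p of 0.421 in limma. The probe set gives 1 value for the gene, so the splice forms of Opa1 were not told apart.

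The 2 proteases that act on OPA1 differed from each other in their values. Oma1 had log2 signals of 6.78, 7.03, 7.16 and 6.89 in control replicates 1 to 4 and 6.69, 6.79, 6.83 and 6.69 in knockout replicates 1 to 4. The control hearts were the more spread out, and control replicate 1 lay within the knockout range. The difference was -0.21 ± 0.09 (SE; 95% interval -0.42 to -0.0050, adjusted p = 0.444 in limma), with an exact permutation p (two-sided) of 0.0857. Yme1l1 averaged 7.97 ± 0.09 in the controls and 7.94 ± 0.06 in the knockouts (SD, n = 4 each), and the difference was -0.03 ± 0.08 (SE; 95% interval -0.20 to 0.14). Whether Oma1 and Yme1l1 differed in their response was not tested.

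Dnm1l, which encodes the fission GTPase DRP1, was at 9.85, 10.02, 10.002 and 9.88 in control replicates 1 to 4 and 9.92, 9.89, 9.90 and 9.96 in knockout replicates 1 to 4. All 4 knockout values lay inside the control range, and their SD was 0.03 against 0.08 in controls. The difference was -0.02 ± 0.07 (SE), with a 95% interval of -0.18 to 0.14.

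Mff, the main outer membrane adaptor for DRP1, was at 9.33, 9.39, 9.41 and 9.42 in control replicates 1 to 4 and 9.15, 9.39, 9.41 and 9.28 in knockout replicates 1 to 4. Knockout replicates 2 and 3 were at the control level and replicates 1 and 4 below it. The difference was -0.08 ± 0.08 (SE; 95% interval -0.26 to 0.10), and it was 0.015 without knockout replicates 1 and 4.

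The remaining fission receptors had low signals with differences near 0. Fis1 averaged 5.25 ± 0.04 in the controls and 5.26 ± 0.05 in the knockouts (SD, n = 4 each), and the difference was 0.01 ± 0.07 (SE; 95% interval -0.14 to 0.16). Mief1 was at 5.93 ± 0.10 and 6.00 ± 0.08, a difference of 0.07 ± 0.08 (95% interval -0.11 to 0.24). Mief2 was at 5.23 ± 0.21 and 5.32 ± 0.20, a difference of 0.09 ± 0.13 (95% interval -0.19 to 0.37), and control replicate 3 and knockout replicate 3 were its lowest hearts. The deposited values carry no detection call, so whether these probe sets stood above background is not known, and a weak probe set can hide a difference. The adjusted p of the 5 fission genes lay between 0.723 and 0.96 in limma.

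**Figure D2:**
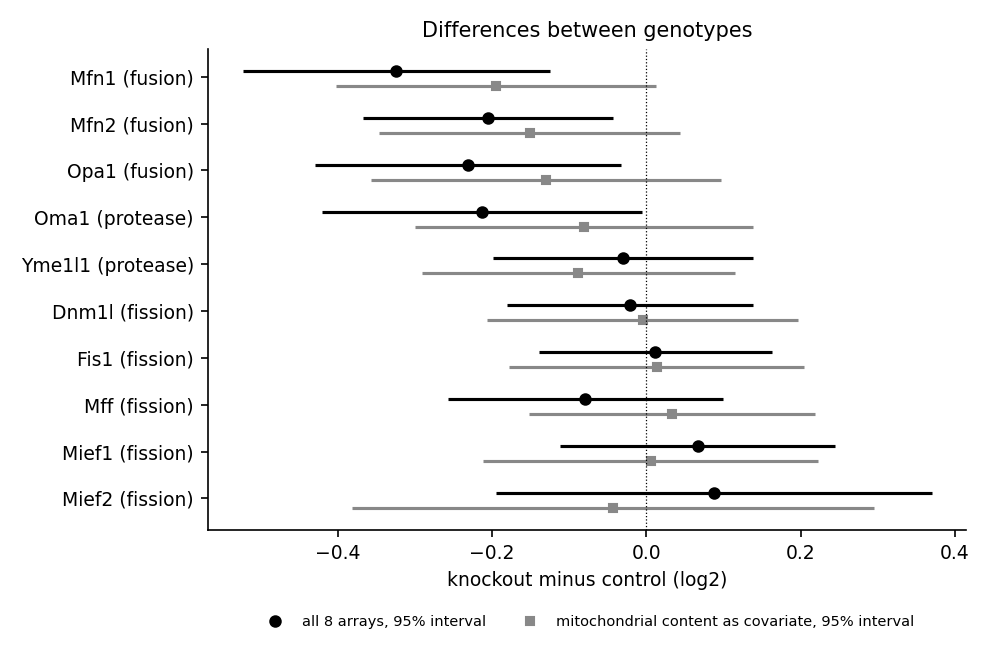
Knockout minus control difference (x axis, log2) of each of the 10 genes with its 95% interval, from limma on all 8 arrays (black circles) and with the array mean of 24 mitochondrial content genes as a covariate (grey squares). The black intervals of Mfn1, Mfn2, Opa1 and Oma1 lie below 0 and those of the other 6 include 0; with the covariate all 10 include 0.

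By role, 3 of 3 fusion genes were lower with a median difference of -0.23, 2 of 2 protease genes were lower with a median of -0.12, and the 5 fission genes split into 2 lower and 3 higher (median 0.01). Over all 10 the median was -0.05, with 7 lower and 3 higher, beside a median of 0.0038 with 48.8% lower and 51.2% higher over all tested genes. The difference between the fusion and the fission genes was not itself tested. The mean deviation of the fusion genes from their 8-array means ran from 0.03 to 0.24 over control hearts and from -0.23 to -0.04 over knockout hearts. For the fission genes it ran from -0.07 to 0.05 over controls and from -0.06 to 0.07 over knockouts, a range that overlapped almost wholly.

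The hearts were not alike in these genes. Knockout replicate 1 had the lowest signal of all 8 hearts for 4 of the 10 genes (Mfn1, Opa1, Mff and Oma1), and control replicate 2 had the highest for 4 (Mfn1, Mfn2, Opa1 and Dnm1l). Within the controls, replicate 1 had the smallest fusion deviation (0.03), and within the knockouts, replicate 2 lay nearest to the controls (-0.04).

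The fusion genes were set beside a list of 24 general mitochondrial content genes (import receptors, porins, chaperones and respiratory subunits). In this list 22 genes had a lower and 2 a higher mean in the knockout (median -0.14), and 0 passed the test. At an unadjusted p under 0.05 there were 3, all lower, or 12.5% of the list. Of all tested genes 5.61% were lower at that level, and 11.2% differed in either direction. Those 3 were Ndufs1, a complex I subunit (-0.37 ± 0.13, SE), Slc25a4, the ADP/ATP carrier of heart (-0.26 ± 0.11), and Hspd1, the matrix chaperonin (-0.33 ± 0.14). Without knockout replicate 1 Ndufs1 differed by -0.24. Without knockout replicates 1 and 4 together the median of the list was -0.04, and Ndufs1, Slc25a4 and Hspd1 differed by -0.15, -0.07 and -0.13. The mean deviation of the content genes ran from -0.04 to 0.14 over controls and from -0.20 to 0.06 over knockouts, so it overlapped between the groups.

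With the content mean of each array as a covariate in limma, the differences of the fusion genes kept their sign and became smaller: -0.19 for Mfn1 (unadjusted p = 0.0621), -0.15 for Mfn2 (0.114) and -0.13 for Opa1 (0.228), each with an adjusted p of 1.00. Oma1 went to -0.08 (unadjusted p = 0.429). None of the 10 then had an unadjusted p under 0.05, against 4 without the covariate. Over all genes 603 did, against 1697. The covariate was itself linked to genotype: 22 of the 24 content genes had a lower mean in the knockout (median -0.14). Fitting it can therefore take up part of a knockout difference, so the smaller values cannot tell content and genotype apart. Whether mitochondrial content accounts for the fusion gene differences was not tested.

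**Figure D3:**
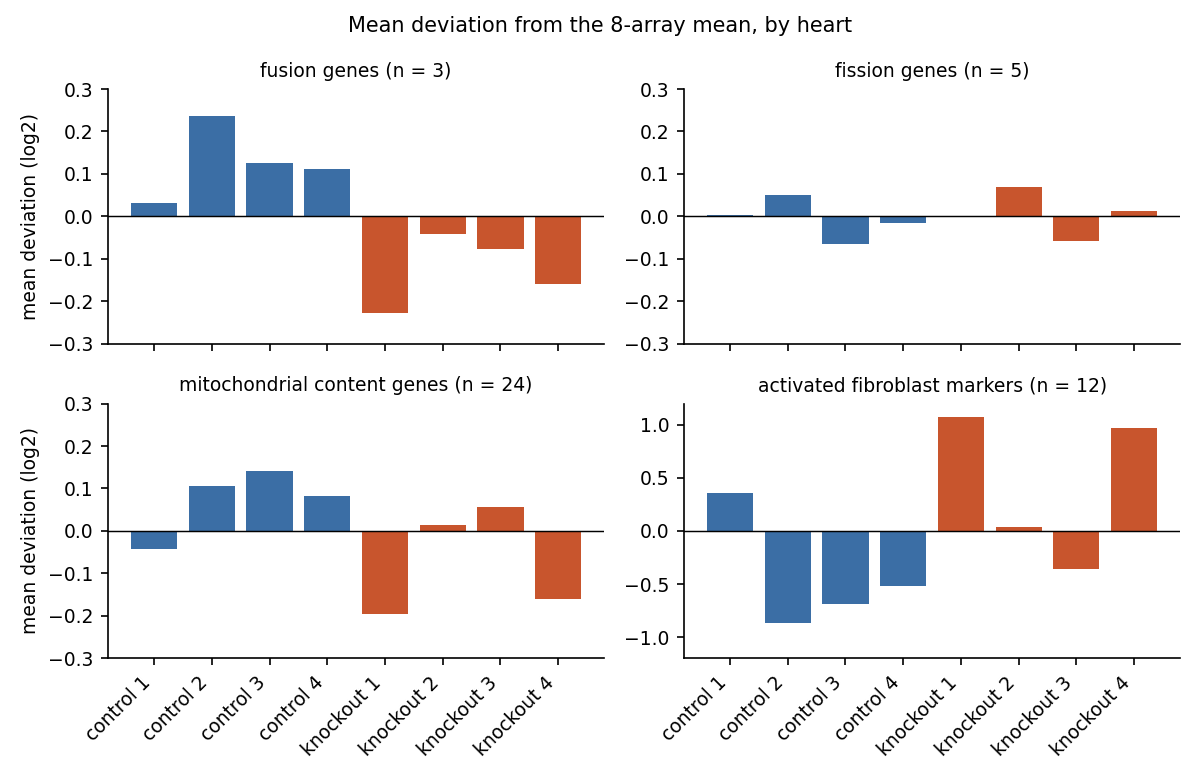
Mean deviation from the 8-array mean (y axis, log2; bars, 1 per heart) of the fusion genes, the fission genes, the mitochondrial content genes and the activated fibroblast markers, with controls in blue and knockouts in orange and a wider y range in the fibroblast panel. The fusion bars are above 0 in the 4 controls and below 0 in the 4 knockouts, while the other 3 panels hold hearts of both groups on either side of 0.

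Markers of other cell types differed in their means beside these results, although none passed limma's adjusted test (0 in each list). Of 12 activated fibroblast markers 11 were higher in the knockout, 9 at an unadjusted p under 0.05 (75%, beside 5.64% of all tested genes). Their summed linear signal was 4701 to 8403 in control and 6304 to 12470 in knockout hearts. Their mean deviation was highest in knockout replicates 1 (1.07) and 4 (0.97), the hearts with the lowest fusion deviations (-0.23 and -0.16). Control replicate 1 (0.35) lay above knockout replicates 2 (0.04) and 3 (-0.35). Of 12 ventricular cardiomyocyte markers 9 were lower, 3 at that level (25%, beside 5.61% of all tested genes). Their summed signals were 42600 to 44490 in control and 38200 to 43440 in knockout hearts. Of 9 macrophage markers 8 were higher and 0 reached that level (2676 to 3102 against 2881 to 3714). No activated fibroblast, ventricular or macrophage marker had a mean below the filter value. Of 6 atrial markers Bmp10 lay below the filter value and the other 5 had a higher mean in the knockout. The summed signals of all 6 were 9241 to 10010 in control and 10020 to 11410 in knockout hearts. These sums mostly reflect the single marker with the highest signal (mean log2 13.3) and not the list as a whole. The mean deviation of the 5 was 2.07 in knockout replicate 2, the knockout heart whose fusion deviation lay nearest to the controls. In knockout replicates 1, 3 and 4 it was -0.22, -0.45 and -0.04, within the control range of -0.58 to 0.17. Without knockout replicate 2 the difference was -0.36 for Mfn1, -0.23 for Mfn2 and -0.26 for Opa1. Without knockout replicates 1 and 4 together it was -0.25 for Mfn1, -0.17 for Mfn2 and -0.14 for Opa1. The part of cell makeup in these differences was not tested.

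Regulators of fusion and fission were mixed, in a list that also held the mitochondrial transport genes Rhot1, Rhot2, Trak1 and Trak2. Of 24 listed genes 22 were tested, and 12 had a lower and 10 a higher mean in the knockout (median -0.02). None passed limma's test (0 of 22), and 5 had an unadjusted p under 0.05, all lower (22.7%, beside 11.2% of all tested genes in either direction and 5.61% lower). The transport genes Rhot2 (-0.28 ± 0.11, SE) and Trak1 (-0.17 ± 0.07) were among the 5. Akap1, which anchors protein kinase A at the outer membrane where DRP1 is phosphorylated, differed by -0.40 ± 0.11 (SE), and Mul1, an outer membrane ligase that acts on MFN2 and DRP1, by -0.25 ± 0.08. In the probe set kept for each, every knockout heart was below every control heart in both genes, which were named for their small p. Over the list this held for 3 of the 22 tested genes, and 0 lay wholly above, beside 2.9% and 2.33% of all tested genes. Mul1 had 2 probe sets, and with them averaged it differed by -0.17 ± 0.10 (SE; 95% interval -0.39 to 0.045). Mtfp1, an inner membrane protein named for its role in fission, had a difference of -0.47 ± 0.16, and its groups overlapped. Without knockout replicates 1 and 4 Akap1 and Mtfp1 differed by -0.23 and -0.24. The list's median was -0.0045 without control replicate 2, -0.013 without knockout replicate 4, -0.05 without control replicate 4 and -0.05 without knockout replicate 3.

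Among inner membrane and matrix quality control genes 11 of 13 were lower and 2 higher (median -0.04), with 0 past the test and 3 at an unadjusted p under 0.05 (23.1%, beside 11.2% of all tested genes). Clpp and Clpx, the 2 parts of a matrix protease, differed by -0.29 ± 0.09 and -0.23 ± 0.09 (SE), and Htra2, a protease of the intermembrane space, by 0.26 ± 0.10. Of the 13 tested genes of the list, 2 lay wholly below the controls and 1 wholly above, beside 2.9% and 2.33% of all tested genes. These were Clpp and Clpx below and Htra2 above, the genes named for the smallest p of the list, so their separation is no independent result. The median was -0.09 without knockout replicate 2 and -0.08 without control replicate 1, each with 9 of 13 lower, and -0.07 without control replicate 3, control replicate 4 or knockout replicate 1.

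Cristae genes, whose MICOS complex works with OPA1 at the cristae junctions, were lower in 11 of 12 cases with a median of -0.14. None passed the test (0 of 12), and 2 had an unadjusted p under 0.05, both lower. They were 16.7% of the list, beside 5.61% of all tested genes lower and 11.2% in either direction. Apoo, a MICOS subunit, differed by -0.26 ± 0.10 (SE), and all its knockout values lay below all its control values. Chchd3, another subunit, differed by -0.25 ± 0.10 and the core subunit gene Immt by -0.13 ± 0.07, and their groups overlapped. With the content covariate the median was -0.03 with 8 of 12 lower, and without knockout replicates 1 and 4 it was -0.06.

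Mitophagy genes, which clear the fragments that fission produces, were lower in 9 and higher in 6 of 15 cases (median -0.05), with 0 past the test. An unadjusted p under 0.05 was found for 3, all lower (20%, beside 5.61% of all tested genes lower and 11.2% in either direction). Pink1, the kinase that labels damaged mitochondria, differed by -0.41 ± 0.14 (SE), the outer membrane protein gene Fundc2 by -0.33 ± 0.12 and the mitophagy receptor gene Bcl2l13 by -0.24 ± 0.09. In all 3 the groups overlapped in the probe set kept, and without knockout replicates 1 and 4 Pink1 and Fundc2 differed by -0.16 and -0.10. Fundc2 had 2 probe sets, and with them averaged over all 8 arrays it differed by -0.40 ± 0.12 (SE). The median of the list was -0.11 without knockout replicate 2, -0.03 without control replicate 1 and -0.02 without knockout replicate 4.

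**Figure D4:**
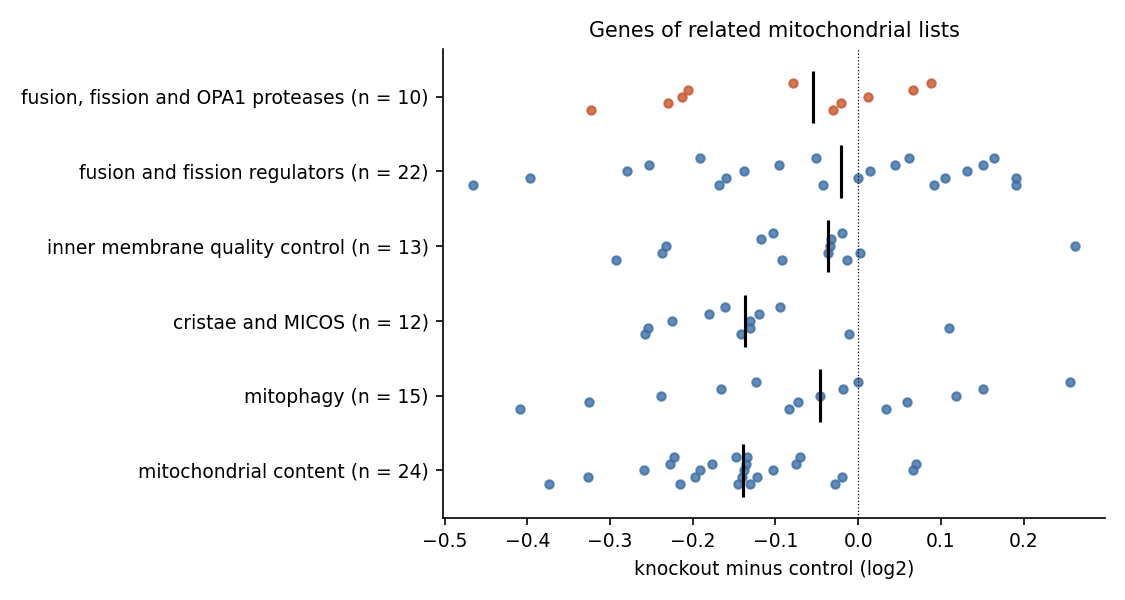
Knockout minus control difference (x axis, log2) of each tested gene of the 10 fusion, fission and protease genes (orange) and of 5 related lists (blue), with vertical bars at medians and points spread vertically for legibility. Cristae and content genes lie mostly below 0 (medians -0.14 and -0.14), and the regulators lie on both sides of 0 (median -0.02).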

How the data were processed

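The authors deposited log2 intensities of 41345 probe sets for 8 Affymetrix arrays, and the tools listed are RMA and limma, per the submitters' processing notes, with no version or role. RMA equalizes the arrays' distributions, which hides any shift common to all genes. Genome build, probe positions and array batches: not given in the sources used here.

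Groups were taken from the labelled genotype. Of 23521 probe sets with 1 gene symbol, the one with the highest mean was kept per gene, and genes whose mean reached the 40th percentile of probe set means (3.80) were tested. Knockout minus control was fitted with limma 3.58.1 in R 4.3.3 (lmFit, eBayes) on all 8 arrays, with Benjamini-Hochberg adjustment over all genes tested and a threshold of 0.05, and the step was tested on simulated data. SEs and 95% intervals of differences use moderated variances. Permutation tests are exact and two-sided. Summed marker signals are sums of unlogged intensities.

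The named genes were the 10 genes, Cited4 and the 3 genes of each list with the smallest p. The genes, lists and tests were chosen with earlier results of these data known. Alternatives (filter, normalization, probe set rule, variance model, array weights, replicate block, content covariate, arrays left out) are given at the end. Their use on Cited4, list genes and list medians was added after seeing the data. Listed genes that matched no gene of the table were not analysed here.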

Additional observations from a re-analysis of the deposited data

Results flagged for a closer look

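Among 52 groups of 4 hearts (10 fusion, fission and protease genes, Cited4 and the named list genes), 3 held a heart that stood apart from the rest of its group by Dixon's criterion, and chance flags about 1 group in 20. Mief2 in control replicate 3 was at 4.93, with the other controls between 5.29 and 5.36. Clpx in knockout replicate 1 was at 7.55, with the other knockouts between 7.79 and 7.82. Chchd3 in control replicate 1 was at 9.48, with the other controls between 9.75 and 9.77.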

How the results depend on the processing

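With 4 arrays a group, 0 of the 10 genes and 0 of all genes had an adjusted p under 0.05 in limma under each alternative run, or under 0.1 with the main settings. Mfn1, Mfn2, Opa1, Oma1 and Mief1 kept their sign under all 19 alternatives. The filter, the probe set rule, the variance model and the replicate block cannot change the difference of these genes. Only the other alternatives could have changed a sign. With the replicate block, Mfn1 differed by -0.32 (adjusted p = 0.16 in limma), and 4 of the 10 genes had an unadjusted p under 0.05, as without it. Over all tested genes 2177 did, against 1697 without the block. Deviations of same-numbered arrays had correlations of 0.359, 0.00866, 0.282 and -0.0253, and 4 of 8 arrays correlated best with their own number. With so few arrays these values cannot decide whether same-numbered hearts were pairs. The numbers were not taken as pairs because the labels do not tie them to litters or array runs. The count of the 10 genes at an unadjusted p under 0.05 was 4, and 1 without control replicate 2, 2 without knockout replicate 1, 1 without knockout replicates 1 and 4 and 0 with the content covariate. Over all 15086 tested genes the counts were, in the same order, 1697, 1056, 987, 617 and 603. When each array was left out, the differences ran from -0.39 to -0.28 for Mfn1, -0.23 to -0.17 for Mfn2, -0.27 to -0.16 for Opa1 and -0.28 to -0.15 for Oma1. Opa1 was at -0.16 without knockout replicate 1 and Oma1 at -0.15 without control replicate 3. Values near 0 changed sign: over left-out arrays Dnm1l ran from -0.049 to 0.0061 (0.00072 without control replicate 3), Fis1 from -0.012 to 0.031 (-0.0033 without control replicate 4), Yme1l1 from -0.068 to 0.0034 (0.00028 without knockout replicate 3) and Mief2 from -0.014 to 0.18. With the content covariate Mff was 0.033 and Mief2 -0.043, and Mff was 0.015 without knockout replicates 1 and 4. The cause of these sign changes was not tested. Among the list medians, the content covariate gave -0.03 for cristae genes (-0.14 without it), -0.02 for content genes (-0.14), which form that covariate, and -0.0061 for quality control genes (-0.04). The median of quality control genes was -0.06 when probe sets of a gene were averaged, that of mitophagy genes -0.0078 without knockout replicates 1 and 4, and that of regulators -0.0065 there, -0.00064 with no filter and -0.05 with the filter at the 60th percentile.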
